A study of Drosophila melanogaster with 8 samples.

Results

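Insulin and TOR signalling couples nutrition to growth, metabolism and egg production in Drosophila. An insulin-like peptide binds the receptor InR, the adaptor chico recruits the lipid kinase whose catalytic subunit is Pi3K92E, and the kinases Pdk1 and Akt then restrain the transcription factor foxo. The TOR kinase, encoded by mTor (listed also as Tor), responds to amino acids and to this cascade, activates S6k and inactivates the translational repressor Thor. In the adult female the pathway is known for its control of yolk formation and of germline stem cell division in the ovary.

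These 9 genes, from the insulin receptor to foxo and TOR, were chosen by symbol or synonym, among probe sets that the array's annotation gives to a single gene. For 7 of them 1 probe set each was found, out of 13647 probe sets of a single gene that stand for 11983 genes. These are InR (1629141_at, arm 3R), chico (1631374_at, 2L), Pdk1 (1629078_s_at, 3L), Akt (1639064_s_at, 3R), foxo (1631597_at, 3R), S6k (1624244_at, 3L) and mTor (1641510_at, 2L), with chromosome arms as RefSeq places the genes on Release 6 plus ISO1 MT. Pi3K92E and Thor were not analysed here. The synonym Tor is shared with torso, a receptor tyrosine kinase of another pathway, whose probe set was not counted.

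The 8 samples were pools of 8 whole females of the line SZ, a composite of 6 strong Z isofemale lines from Zimbabwe (ZS2, ZS11, ZS53, ZS56, ZH12 and ZH32). The females were virgin until the experiment at 7 days after eclosion and were frozen 30 minutes after mating. The partners were SZ males in 4 pools (ZxZ) and males of LHM, an outbred M strain laboratory population from California, in the other 4 (ZxM), so the strain of the male was the labelled difference. The pools are labelled as biological replicates, and p-values measure the spread between them. No unmated females were among the samples, so no level before mating is known. The comparison asks which genes of females respond differently to the more and the less preferred male.

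Each pool was hybridised to an Affymetrix Drosophila Genome 2.0 array of its own, and the deposited values are log2 expression levels per probe set, running from 6.05 to 15.15. The 75th percentile of an array lay between 9.45 and 9.53 in ZxZ and between 9.54 and 9.63 in ZxM. This percentile was thus higher on every ZxM array, if by little between the closest arrays. The top of the scale was not, as the highest value on an array was 14.96 to 15.15 in ZxZ and 14.79 to 15.03 in ZxM. Whole-body markers were in place: the mean of the yolk protein genes Yp1, Yp2 and Yp3 was at 14.75 to 14.91 in ZxZ and 14.57 to 14.78 in ZxM, and that of the germline genes osk, nanos and otu at 12.37 to 12.45 and 12.34 to 12.61. The 8 genes of the male accessory gland averaged 6.73 to 6.77 in ZxZ and 6.70 to 6.74 in ZxM, and the 6 testis genes 6.67 to 6.71 and 6.66 to 6.75, both near the lower end of the scale. Neuronal genes (3 measured of 4) averaged 7.11 to 7.28 and 7.15 to 7.18, and muscle genes (3 of 4) 9.57 to 10.05 and 9.56 to 9.91. By limma at 10% FDR Yp3 (1 of 3 tested yolk genes) and SP (1 of 2 tested accessory gland genes) were higher in ZxZ. Lower was otu (1 of 2 tested germline genes), and no other marker was called. Over all tested genes 1.1% were called higher and 17.6% lower. The germline gene osk did not follow otu (log2 differences of 0.07 and -0.17), and SP lay at only 6.56 to 6.79. The part of these markers in the differences of the insulin and TOR genes was not tested. In RNA of whole flies, fewer cells of a type and less RNA per cell cannot be told apart.

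In the deposited values Pdk1, foxo, S6k and mTor were called lower in ZxZ than in ZxM females, by 10.6% to 15.8% in the fit with array weights. With equal array weights their log2 differences were -0.20, -0.17, -0.17 and -0.16 in this order. The receptor gene InR differed little between the groups. The adjusted p-values of the 4 calls were 0.0866 to 0.0957 from limma. No member was called with equal array weights, no variability filter, a replicate block or quantile normalization, or without certain single arrays. Of all tested genes these settings called 0, or 1 of 5991 with the replicate block. After quantile normalization the 4 log2 differences were -0.11 (Pdk1) to -0.05 (mTor), and their confidence intervals all included 0. Differences are log2 values of ZxZ minus ZxM, tested two-sided by limma with array weights at 10% FDR after Benjamini-Hochberg adjustment over 5991 genes in the upper 50% by interquartile range. Of the 7 measured members 5 passed this filter, and 4 of these were called lower, 0 higher and 1 did not pass the test. Across all genes tested 17.6% were called lower and 1.1% higher, 18.7% in all. The filter keeps genes that vary over the 8 arrays, and therefore favours genes whose groups differ, so the count of 4 describes these members and is no measure of the whole pathway. The median difference of the 5 tested members was -0.20 on the log2 scale, against -0.09 for all tested genes.

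**Figure D1:**
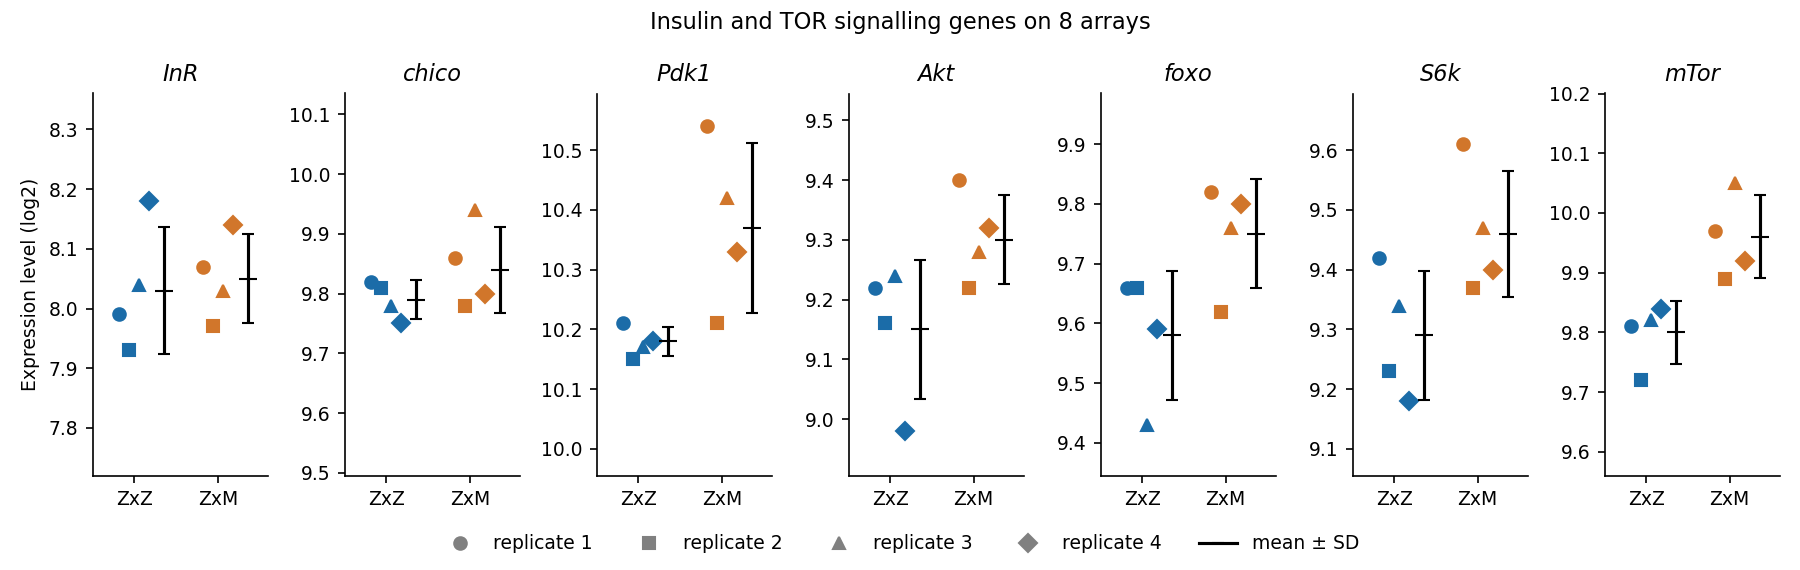
Expression level (log2) of each of the 7 measured genes on the 4 ZxZ and 4 ZxM arrays, 1 point per pool of females with the replicate number as its shape, and the group mean ± SD (n = 4) beside the points; all panels span the same log2 range. The ZxZ and ZxM points of mTor are separate, with 9.84 as the highest ZxZ and 9.89 as the lowest ZxM value, and those of InR lie over each other.

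At the top of the cascade, InR encodes the receptor tyrosine kinase for the insulin-like peptides. Its level was 7.99, 7.93, 8.04 and 8.18 in ZxZ replicates 1 to 4 and 8.07, 7.97, 8.03 and 8.14 in ZxM replicates 1 to 4. The groups overlapped over most of their range, and replicate 4 was highest in both. The log2 difference was -0.02 (95% confidence interval -0.16 to 0.11, adjusted p = 0.778 from limma), an interval that reaches the size of the difference of mTor. Its sign was positive when arrays were brought to a common 75th percentile, after quantile normalization, or without ZxZ replicate 2.

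The adaptor chico, the fly counterpart of the insulin receptor substrates, varied least among the members, with an interquartile range of 0.0531, and was left out by the filter. It measured 9.82, 9.81, 9.78 and 9.75 in ZxZ replicates 1 to 4 and 9.86, 9.78, 9.94 and 9.80 in ZxM replicates 1 to 4. Only ZxM replicates 1 and 3 were above all ZxZ pools. In the fit of all 11983 measured genes, where 0% were called, its log2 difference was -0.05 (95% confidence interval -0.14 to 0.04, adjusted p = 0.477 from limma), and it was positive after quantile normalization and at a common 75th percentile.

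Among the kinases, Pdk1 phosphorylates Akt and S6k in their activation loops. It measured 10.21, 10.15, 10.17 and 10.18 in ZxZ replicates 1 to 4, and 10.54, 10.21, 10.42 and 10.33 in ZxM replicates 1 to 4. The means were 10.18 ± 0.0248 in ZxZ and 10.37 ± 0.142 in ZxM (SD, n = 4), so the ZxM pools varied more, and ZxM replicate 2 alone reached down to the ZxZ values. The log2 difference was -0.25 (SE 0.0646, adjusted p = 0.0866 from limma), a 0.842-fold level, which placed Pdk1 at percentile 3.17 of the differences of all tested genes. This estimate weights ZxM replicate 1 by 1.75 and ZxM replicate 2 by 0.505, and so exceeds the difference of the plain group means. Without ZxM replicate 1 it was -0.15 and was not called, in a setting that called 0 of all 5991 tested genes.

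Akt, the kinase that phosphorylates foxo, missed the filter by a small margin, with an interquartile range of 0.0893 against the minimum of 0.0908. Its level was 9.22, 9.16, 9.24 and 8.98 in ZxZ replicates 1 to 4 and 9.40, 9.22, 9.28 and 9.32 in ZxM replicates 1 to 4. ZxZ replicate 4 was low and ZxM replicate 2 fell among the ZxZ pools. Over all measured genes the log2 difference was -0.16 (95% confidence interval -0.29 to -0.03, unadjusted p = 0.0185 and adjusted p = 0.170 from limma), and Akt did not pass the test.

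The transcription factor gene foxo, whose product enters the nucleus when insulin signalling is low, measured 9.66, 9.66, 9.43 and 9.59 in ZxZ replicates 1 to 4. In ZxM replicates 1 to 4 it was at 9.82, 9.62, 9.76 and 9.80. ZxZ replicate 3 was the lowest pool, and ZxM replicate 2 was again the single ZxM pool within the ZxZ range. The log2 difference was -0.22 (SE 0.0657, adjusted p = 0.0878 from limma), a 0.858-fold level at percentile 5.56 of all tested genes. With equal array weights the difference was -0.17, and without ZxZ replicate 3 it was -0.13. Neither setting called foxo, and both called 0 of all 5991 tested genes.

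In the TOR arm, S6k encodes the kinase of ribosomal protein S6. It measured 9.42, 9.23, 9.34 and 9.18 in ZxZ replicates 1 to 4 and 9.61, 9.37, 9.47 and 9.40 in ZxM replicates 1 to 4. ZxZ replicate 1 lay among the ZxM pools, so the groups overlapped. The log2 difference was -0.20 (SE 0.0702, adjusted p = 0.0957 from limma). It was -0.17 with equal array weights and -0.11 without ZxM replicate 1, the highest pool. Neither setting called S6k, and both called 0 of all 5991 tested genes.

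The kinase gene mTor itself was at 9.81, 9.72, 9.82 and 9.84 in ZxZ replicates 1 to 4. In ZxM replicates 1 to 4 it was at 9.97, 9.89, 10.05 and 9.92. It was the only member whose groups did not overlap, lower in ZxZ, which held for 12.1% of all tested genes (13.1% in either direction) and for 8.7% of all measured genes. The log2 difference of -0.16 (SE 0.0497, adjusted p = 0.0888 from limma) was the smallest of the 4 called, at percentile 18.8 of all tested genes, with small spreads of 0.0531 in ZxZ and 0.0695 in ZxM (SD, n = 4).

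The 4 calls rested on adjusted p-values between 0.0866 and 0.0957. With equal array weights limma called none of the members and 0 of all 5991 tested genes. With no variability filter it called 0 of 7 members at 10% FDR and 0 of all 11983 measured genes. There 5 of 7 had an unadjusted p under 0.05, all 5 lower in ZxZ, against 18.3% of all measured genes. With the replicate number as a block 0 members and 1 of 5991 tested genes were called. The adjusted p-values from limma were there 0.135 for Pdk1 and S6k, 0.141 for foxo and 0.162 for mTor. Within same-numbered pairs of pools, Pdk1, Akt, S6k and mTor were at a lower value in ZxZ in 4 of 4, foxo and chico in 3 and InR in 2, and 20.2% of all measured genes had the lower value in all 4 pairs. None was called when ZxZ replicate 3 or 4, or ZxM replicate 1 or 3, was left out. Each of these settings called 0 of all 5991 tested genes. Leaving out any of the other 4 arrays gave 4 calls, and 2009 to 2844 of all 5991 tested genes were called there. In the fit of all 13647 probe sets of a single gene 0 passed limma at 10% FDR, and so 0 of the 7 of the members. At an unadjusted p under 0.05, 5 of the 7 were lower, against 17.0% of all those probe sets.

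The size of these differences moved with the scaling of the arrays. After quantile normalization the log2 difference was -0.11 for Pdk1, -0.10 for foxo, -0.07 for S6k and for Akt, and -0.05 for mTor, with none called by limma at 10% FDR (0 members and 0 of the 5991 genes, with 348 lower and 236 higher at an unadjusted p under 0.05). With all arrays brought to a common 75th percentile, an alternative chosen after seeing the data, Pdk1 was at -0.14 (unadjusted p = 0.0311, adjusted p = 0.219 from limma) and mTor at -0.07. There the balance over all genes turned, with 200 of the tested genes lower and 922 higher at an unadjusted p under 0.05, and 276 lower and 2930 higher of all measured genes. With arrays centred on their median the same 4 genes were called lower, Pdk1 at -0.30 and mTor at -0.20, and 98.4% of the 2500 calls among all tested genes were lower. The median of all tested genes was -0.01 after quantile normalization, 0.00 at a common 75th percentile and -0.14 with centred arrays. Pdk1, foxo, S6k, Akt and mTor had a negative difference under all 4 scalings, but their 95% confidence intervals all included 0 after quantile normalization (Pdk1 -0.23 to 0.01, mTor -0.15 to 0.05), and all but that of Pdk1 (-0.27 to -0.02) did at a common 75th percentile. Centring and a common 75th percentile move all genes of an array by the same amount, and InR and chico, whose differences were nearest to 0, changed sign at the latter.

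**Figure D2:**
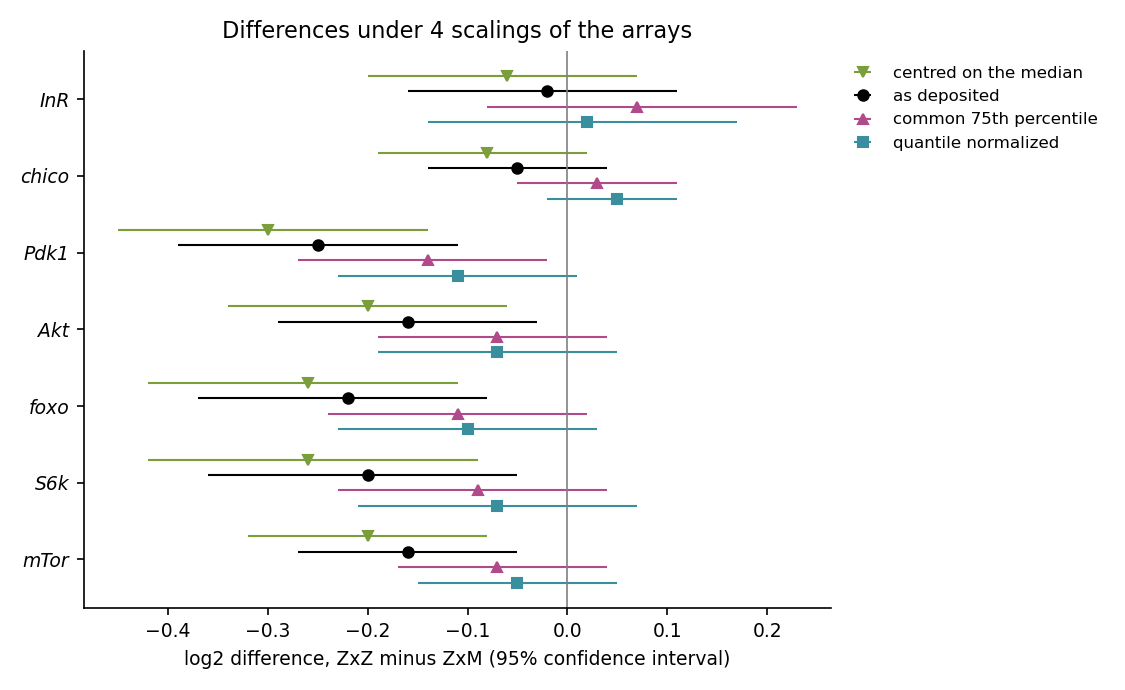
The log2 difference ZxZ minus ZxM of each measured gene with its 95% confidence interval from limma, for the deposited values and 3 other scalings of the same 8 arrays. Pdk1 runs from -0.30 with arrays centred on the median to -0.11 after quantile normalization, and only InR and chico lie on both sides of 0. Akt and chico come from the fit of all measured genes and the others from the fit of the tested genes.

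Across the 8 arrays, 6 of the 7 genes correlated positively with each other, and how common such values are among other gene pairs was not analysed here. Pairs among chico, Pdk1, Akt, foxo, S6k and mTor correlated at r = 0.552 (Akt and foxo) to 0.896 (Akt and S6k), whereas InR correlated with the others at -0.206 to 0.333. After the group means were removed, Akt and S6k still correlated at 0.81 and Pdk1 and S6k at 0.728, while Akt and mTor were at -0.0203. Within the groups foxo was at 0.0327 with mTor, 0.154 with Akt and 0.239 with S6k, but at 0.449 with chico and 0.556 with Pdk1. The 75th percentile of the arrays also varied, and the 6 genes correlated with it at 0.775 (foxo) to 0.892 (chico) and InR at -0.169. Within the groups chico followed it at 0.956, Pdk1 at 0.621 and mTor at 0.390. The correlations are descriptions over 8 arrays in 2 groups, and the part of the array distribution in the members' differences was not tested beyond the scalings given above.

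**Figure D3:**
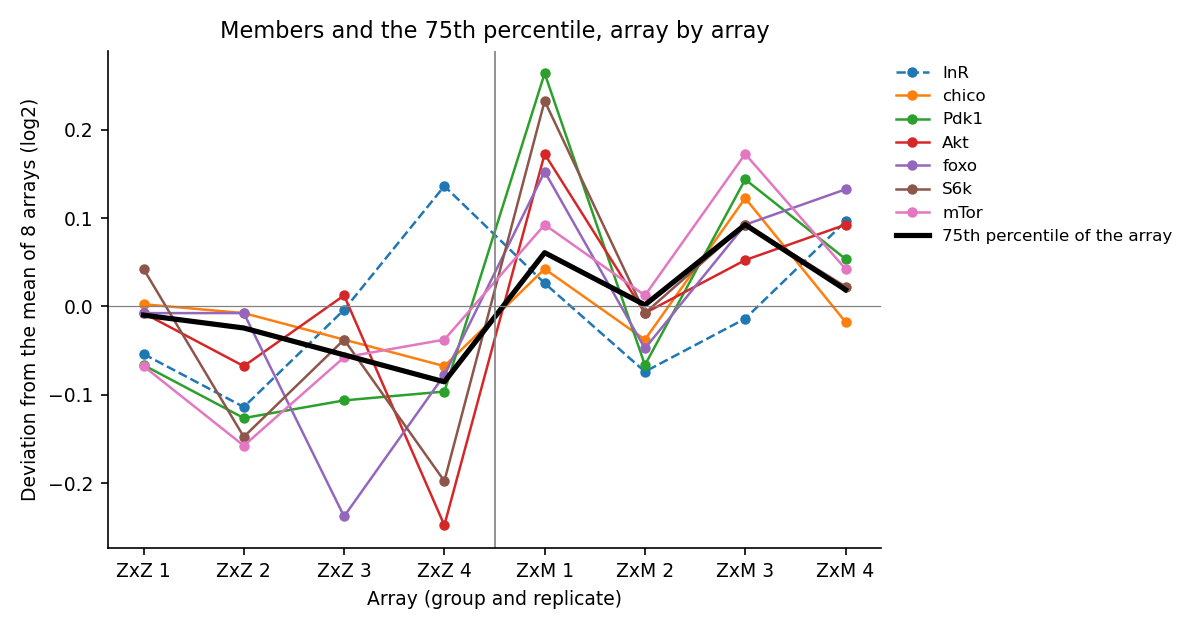
Deviation of each measured gene from its own mean over the 8 arrays (log2), with the 75th percentile of each array's values drawn the same way as a thick line; lines join the values of 1 gene and imply no order of replicates. ZxM replicates 1 and 3 stand high for Pdk1, S6k and mTor, ZxM replicate 2 stands near 0 or below for all 7 genes, and InR follows a course of its own.

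Among the other tested genes, those with the most similar course over the 8 arrays were Gmer (r = 0.972) and CG1239 (0.969) for Pdk1, CG15096 (0.982) and CG7222 (0.977) for foxo, OtopLa (0.978) and CG7987 (0.955) for S6k, and U2A (0.981) and Hrb87F (0.970) for mTor. For Akt they were CG15673 (0.952) and Pex5 (0.930), for chico Abca3 (0.981) and eIF3j (0.980), and for InR r-cup (0.917) and CG9784 (0.913). The measure is Pearson's r over 8 arrays. A value above 0.9 was reached by 2.90% of the tested genes for chico, 2.21% for foxo, 2.03% for Pdk1 and 1.44% for mTor. The share was 0.47% for S6k, 0.235% for Akt and 0.0336% for InR.

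Of 60 further genes listed for the pathway, 42 were measured and 25 were tested. Sesn, a stress-induced inhibitor of TOR, was lower in ZxZ, 0 genes were higher and 24 did not pass limma at 10% FDR, so that 1 of 25 was called where 17.6% of all tested genes were called lower and 18.7% in either direction. Over the 42 measured genes 30 had a negative difference, with a median of -0.07, against 62.5% of all measured genes and their median of -0.03. At an unadjusted p under 0.05, 7 of the 42 were lower and 0 higher, against 18.3% and 2.85% of all measured genes, a share near the background.

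**Figure D4:**
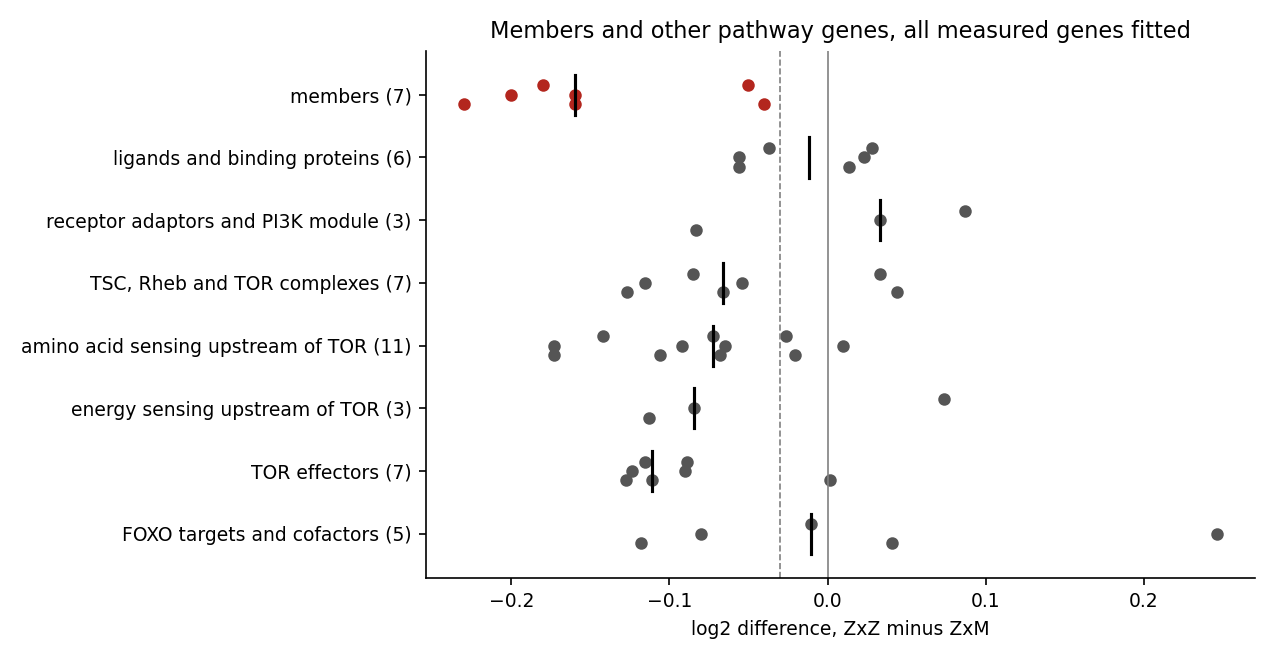
The log2 difference ZxZ minus ZxM in the fit of all measured genes, 1 point per gene, for the 7 members and for 42 other pathway genes by role, with the number of genes in parentheses and the median of each group as a black bar; the dashed line is the median of all measured genes, -0.03, and points are offset vertically for legibility. The medians run from -0.16 for the members to 0.03 for the receptor adaptors and PI3K module, and tobi stands at 0.25.

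The ligands and their binding proteins showed no call among 3 tested of 6 measured. The peptide gene Ilp2, made in neurosecretory cells of the brain, was at 7.61 to 7.73 in ZxZ and 7.63 to 7.82 in ZxM (a difference of -0.06, adjusted p = 0.553 by limma over all measured genes). ImpL2, a secreted insulin-binding antagonist, was at -0.06 (adjusted p = 0.626) and Sdr, a secreted decoy of the receptor, at -0.04 (adjusted p = 0.658) in the same fit. The receptor adaptors and PI3K module had 3 measured genes, all tested and none called. The 14-3-3 proteins bind phosphorylated foxo, and in the fit of the tested genes 14-3-3zeta was at -0.11 (adjusted p = 0.357) and 14-3-3epsilon at 0.01 (adjusted p = 0.926). The phosphatase subunit gene wdb, an antagonist of Akt, was at 0.10 (adjusted p = 0.365) by its more variable probe set. It was at -0.02 without ZxM replicate 1, where this probe set was lowest. Without ZxM replicate 4 it was at 0.20 (adjusted p = 0.0714 from limma) and called higher, as were 352 of 5991 tested genes in that setting. Its other probe set was at -0.09 (adjusted p = 0.264) in the fit of all probe sets, so its direction is not settled.

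Genes of the TSC, Rheb and TOR complexes (7 measured, 4 tested, 0 called) included Lst8, a subunit shared by both TOR complexes. It measured 9.83, 9.96, 9.86 and 9.89 in ZxZ and 9.97, 9.90, 10.10 and 10.06 in ZxM replicates 1 to 4, a log2 difference of -0.13 (SE 0.0530, adjusted p = 0.115 from limma). Only ZxZ replicate 2 and ZxM replicate 2 overlapped. Sin1 and rictor, of the complex that phosphorylates Akt, were at -0.09 (adjusted p = 0.270) and -0.12 (adjusted p = 0.296) over all measured genes.

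Amino acid sensing upstream of TOR held the single further call, among 6 tested of 11 measured genes. Sesn was at 9.94, 9.93, 9.97 and 9.82 in ZxZ replicates 1 to 4 and at 10.18, 9.92, 10.21 and 10.03 in ZxM replicates 1 to 4. As with Pdk1, Akt and foxo, ZxM replicate 2 lay within the range of the ZxZ pools, and the other ZxM pools lay above it. The log2 difference was -0.20 (SE 0.0632, adjusted p = 0.0901 from limma), a 0.873-fold level. Sesn was not called with equal array weights or with no variability filter, and both settings called 0 of all tested genes. The amino acid transporter gene slif was at -0.15 (SE 0.0577, adjusted p = 0.109) and Wdr59, of the GATOR complex, at -0.11 (SE 0.0498, adjusted p = 0.148), and neither passed the test. All 6 tested genes of this group had a negative difference, against 74.1% of all tested genes.

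Energy sensing through the AMP-activated kinase (3 measured, 1 tested, 0 called) was represented by its alpha subunit gene AMPKalpha at -0.10 (adjusted p = 0.184 from limma). Over all measured genes the gamma subunit gene SNF4Agamma was at -0.11 (adjusted p = 0.224) and the beta subunit gene alc at 0.07 (adjusted p = 0.366).

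None of the 5 tested TOR effectors was called, and all 5 had a negative difference with a median of -0.14, against 74.1% of all tested genes and their median of -0.09. Over the 7 measured effectors 6 were negative, with a median of -0.11, against 62.5% and -0.03 of all measured genes. Tif-IA, an initiation factor of ribosomal RNA synthesis, was at 11.76 to 11.86 in ZxZ and 11.81 to 11.94 in ZxM (a difference of -0.12 with SE 0.0468, adjusted p = 0.107 by limma). Atg13, which acts with Atg1 at the start of autophagy, was at -0.14 (SE 0.0570, adjusted p = 0.112), and Mitf, a regulator of lysosomal genes, at -0.09 (adjusted p = 0.290) over all measured genes, where all its values lay between 6.59 and 6.84.

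Among targets and cofactors of FOXO 5 were measured, 3 were tested and 0 were called. The deacetylase gene Sirt1 was at -0.13 (adjusted p = 0.166 from limma) and the lipase gene bmm at -0.08 (adjusted p = 0.331) over all measured genes. The glucosidase gene tobi, which responds to insulin and to adipokinetic hormone, was at 12.33 to 12.68 in ZxZ and 11.74 to 12.68 in ZxM. Its difference of 0.26 was the largest in size among the 25 tested pathway genes, but ZxM replicate 1 alone lay far below the others, and it did not pass the test (SE 0.179, adjusted p = 0.295).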

How the data were processed

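Expression was measured on 8 arrays, 4 ZxZ and 4 ZxM, each from the RNA of 1 pool of females. The deposited log2 values were made by the authors with VSN (background, calibration between arrays, transformation) and RMA. The submitters' processing notes name affy and R 2.8.1. VSN compresses differences between low values, so folds of low genes are understated. Detection calls and scanner output were left aside. Precision is limited by there being only 8 arrays.

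Probe sets with 1 annotated gene were kept, with current symbols looked up through Entrez numbers. A gene was represented by its most variable probe set, and the upper 50% of genes by interquartile range (above 0.0908) were tested, as the methods' value of 0.5 was read as a quantile. limma 3.58.1 in R 4.3.3 was used (lmFit, arrayWeights by REML, eBayes, Benjamini-Hochberg), after a check on simulated data. The simulated noise was independent for each gene, with no difference between arrays in scale or quality. The check therefore cannot tell how far the calls depend on array weights or scaling. Untested members were read from the same fit over all 11983 measured genes. Pathway genes named are up to 3 per role with the smallest p, and similar genes the 2 with the highest r per member. Members and lists were chosen with earlier results of these data known. The alternatives were other weights, filters, probe sets, scalings and priors, a t-test, a replicate block and leaving out each array. The paper's methods describe both matings in each of 4 replicates, which may tie same-numbered pools, and name no shared day. Deviations of same-numbered arrays from their group means correlated at 0.146, -0.23, -0.188 and 0.16, and those of differently numbered arrays at -0.168 to 0.295.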

Additional observations from a re-analysis of the deposited data

Results flagged for a closer look

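In 5 of 58 groups of 4 arrays examined (the 7 members, 21 pathway genes and the 75th percentile of the arrays), 1 array stood far from the other 3, with a gap to its neighbour, as a share of the group's range, above Dixon's 95% critical value, and chance gives about 1 in 20 groups. None of them concerned a member. In ZxM replicate 1 alc (0.961) and wdb (0.897) were the lowest, in ZxM replicate 2 Mitf (0.848) and Tif-IA (0.833) were the lowest, and in ZxZ replicate 1 slif (0.844) was the highest of its group.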

How the results depend on the processing

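The 4 calls among the members became 0 with equal array weights, no variability filter, quantile normalization, a common 75th percentile (added after the data were seen) or a t-test without weights or moderation. Of all tested genes these settings called 0, or 10 of 5991 with the t-test. The members' calls stayed at 4 with each gene's brightest probe set, centred arrays, the lowest 25% by mean left out, and a trend and robust prior. These settings called, in this order, 1353 of 5991, 2500 of 5991, 1504 of 5377 and 1159 of 5991 tested genes. The replicate number as a block also left 0 calls for the members and 0 for the other pathway genes, where 1 of 5991 tested genes was called. The single call among the other pathway genes became 0 under the settings that left no member called. It became 2 of 25 with the brightest probe sets, 11 of 25 with centred arrays and 4 of 25 with the lowest 25% by mean left out. These numbers moved with the calls over all tested genes given above. Among all probe sets the 0 calls of members became 3 with centred arrays, where 1100 of 13647 probe sets were called. Leaving out each array in turn gave 0 to 4 member calls, 0 to 11 pathway calls and 0 to 5 member probe sets. Over the same settings 0 to 2844 of 5991 tested genes and 0 to 2210 of 13647 probe sets were called. The 11 pathway calls, 9 of them lower, came without ZxM replicate 4, where 2844 of 5991 tested genes were called. No member has an interquartile range of 0.5, so that setting gave no value. The differences of InR and chico changed sign after quantile normalization (0.019 and 0.046) and at a common 75th percentile (0.073 and 0.034), and that of InR ran from -0.088 to 0.014 when 1 array was left out, positive without ZxZ replicate 2. Pdk1, foxo, S6k, Akt and mTor kept their sign under all settings run, and the cause of the changes in calls was not tested. How far a probe set lay above background was not analysed here.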
